A study of Arabidopsis thaliana with 3 samples.

Results

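HAT2 (AT5G47370) encodes a transcription factor of class II of the homeodomain-leucine zipper (HD-Zip) family, and it was the 1 gene that the symbol rule found among the 22746 probe sets analysed. The rule took probe sets whose single gene symbol was HAT or HB followed by a number, without the haemoglobin genes HB1 and HB2, and would have kept the 10 brightest. The naming table gave 1 gene symbol to 13513 of the probe sets, and among these HAT2 was carried by 1 probe set. HAT3.1 (AT3G19510), whose symbol ends in a decimal number, was not counted as a member. It encodes a homeodomain protein with a PHD finger and no leucine zipper next to the homeodomain. No other single gene symbol met the rule. The 8730 probe sets not listed in the naming table and the 503 with several gene symbols stayed in the analysis. Any HD-Zip genes named HAT or HB among them could not be recognised.

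HD-Zip proteins are found in plants and bind DNA as dimers that form through a leucine zipper next to the homeodomain. Class II members mostly repress transcription, their own genes among the targets, and several respond to shade light and to auxin. HAT2 was first described as a gene induced early by auxin, and plants that overproduce it have long hypocotyls and other traits of altered auxin response.

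The samples were whole Arabidopsis thaliana plants of the Col-0 accession at the rosette stage, grown for 14 days on solid medium with sucrose. Plates in the control group were flooded with 1 mL of water, and those in the treated group with the same volume of the synthetic auxin and herbicide 2,4-D at 1 mM, dissolved in water at neutral pH. The duration was 1 hour, and 1 Affymetrix array was hybridised per sample, with 1 array for water and 2 for 2,4-D. Nothing in the labels says whether the treated samples were separate plants or plates, so the spread between them may be technical. Since whole plants were used, more RNA per cell and more cells that express a gene cannot be told apart.

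HAT2 gave a signal of 293 in the water sample. In the treated samples it gave 1431 on 2,4-D replicate 1 and 1436 on replicate 2. Both treated arrays were far above the water array, and they differed little from each other. Their mean was 1433 ± 3.70 (SD, n = 2), in units of MAS5, the Affymetrix method that gives each probe set 1 signal on a linear scale. The water array lacks a replicate, so it has no spread of its own. HAT2 was well measured before treatment too. Its water signal was 21.1 times that of the brightest of 27 control probe sets for Bacillus subtilis transcripts, which were dim on all 3 arrays (13.9 on the water array, 10.7 and 8.38 on the treated arrays).

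**Figure D1:**
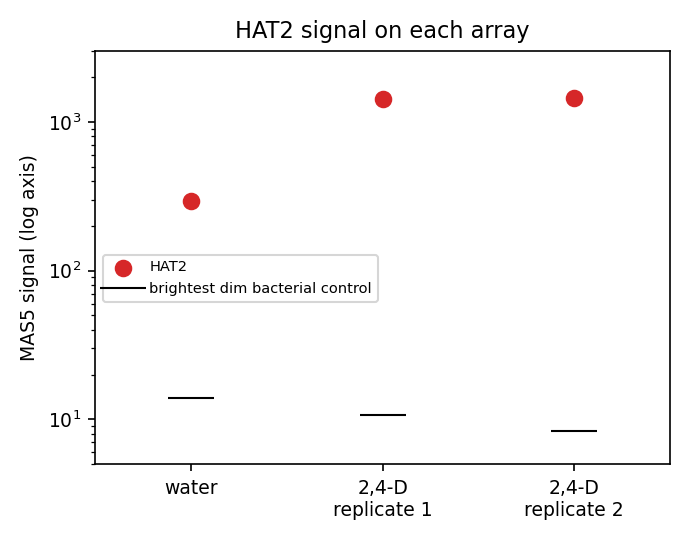
MAS5 signal of HAT2 on a log axis for the water array and the 2 arrays of 2,4-D, with a short line for the brightest dim bacterial control of the same array. HAT2 stands at 293 with water and at 1431 and 1436 with 2,4-D, above the control on every array.

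HAT2 rose 4.89-fold with 2,4-D. On the log2 scale the difference between 2,4-D and water was 2.29 ± 0.21 (SE, n = 2 against 1), with a 95% interval of 1.88 to 2.70 and limma adjusted p = 4.72e-25. In folds the interval ran from 3.68 to 6.51. The error comes from the pair of treated arrays, pooled across probe sets of like signal, on the assumption that the unreplicated water array varies to the same extent. Without a trend over signal, where each gene's spread is drawn toward a value common to all tested probe sets, the adjusted p in limma was 0.000831. The call rested on 1 tested member of 1, against a background in which 10.8% of the 13648 tested probe sets were called higher, 10.5% lower and 21.3% in either direction. The lower limit of the interval stayed well above 1-fold, but no second water array stands behind it.

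The separate arrays gave nearly the same value. The log2 difference from water was 2.288 on 2,4-D replicate 1 and 2.293 on 2,4-D replicate 2, a distance of 0.0053. Among the 200 tested probe sets closest to HAT2 in treated signal, the median distance between the treated arrays was 0.13 and the highest 0.85. Only 3 of these 200 had a distance as small as that of HAT2. The standard error of 0.21 given above comes from the trend over signal and not from the distance between the HAT2 values.

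The size of the rise was reached by few probe sets. At least 2-fold higher on both treated arrays were 3.8% of the tested probe sets, and at least 4-fold higher were 0.667%, a group that includes HAT2. Of the 200 probe sets closest in treated signal, 6 were at least 2-fold higher on both arrays and 2 at least 4-fold. Over all tested probe sets 57 others were at least as much higher on both arrays as HAT2 was on its lower array, and 22 of these carried 1 gene symbol. Their number depends on how dim signals are treated: it was 36 with dim signals raised to the control, 24 with an offset added before log2, and 274 without a filter on low signal.

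**Figure D2:**
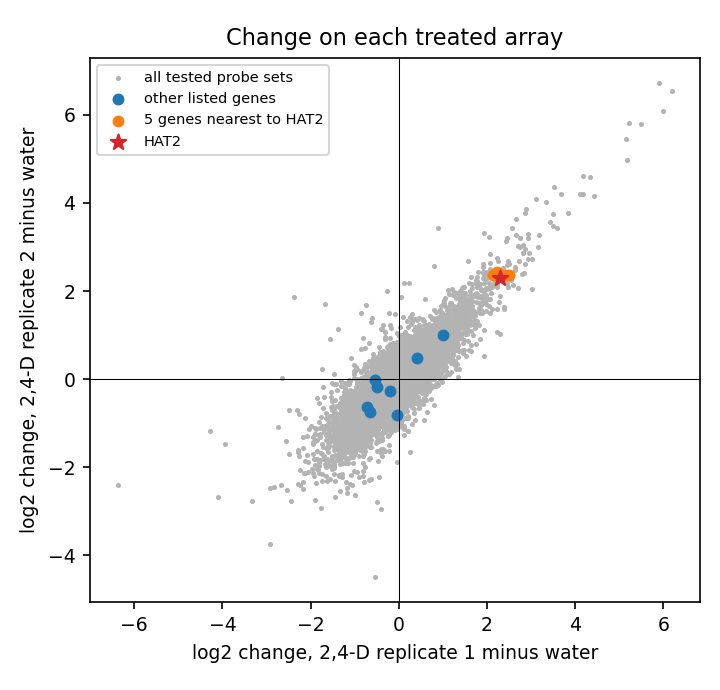
Log2 change from water on 2,4-D replicate 1 (horizontal) and replicate 2 (vertical) for the 13648 tested probe sets, with HAT2 as a star, the other listed genes of its network in blue and the 5 named genes nearest to HAT2 in orange. HAT2 lies in the upper right at 2.288 and 2.293, and 57 other probe sets are at least as high on both axes as its lower value. The other listed genes lie between -0.81 and 1.01 on both axes.

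Likeness to HAT2 was measured as the distance over the 3 log2 signals, each gene centred on its own mean, among tested probe sets with 1 gene symbol. The nearest was AT5G61820, at a distance of 0.075, with 298 for water against 1565 and 1525 after treatment. AT5G19875 followed at 0.107, with 48.2 against 221 and 246. In both genes the treated arrays lay far above the water array and near each other, which follows from how they were chosen. AT1G30250 came next at 0.131, with 7.98 against 37.6 and 42.8. Its water signal lay below the brightest dim control, so it was at least 2.89-fold higher, and its place in this order is not resolved. It passed the filter on low signal only through its treated signals. AT4G12000 was at a distance of 0.144 (49.1 against 276 and 254). SIS (AT5G02020), known as a salt-induced gene for a serine-rich protein, was at 0.152, with 99.1 against 436 and 506. With 3 arrays these distances hold little more than the size of 1 contrast, so many genes of like change would score alike.

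A set of 8 lists with 167 genes, HAT2 included, covered the HD-Zip classes, the zinc finger homeodomain genes, and the shade, leaf polarity and abscisic acid genes linked to them. Named probe sets existed for 9 genes in 4 of the lists, and the fit covered all 9. Without HAT2, 1 of the 8 others rose and 1 fell, and 6 did not pass, so 25.0% were called, near the 21.3% of all tested probe sets called in either direction. Their median log2 change was -0.30, against -0.04 over all tested probe sets. The lists of HD-Zip class I, HD-Zip class IV, zinc finger homeodomain and abscisic acid genes had 0 named members.

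Among genes for transcription factors of the same family, PHV (AT1G30490) was the other one that could be named. It encodes a class III HD-Zip protein that sets the upper side of leaves. Its signal was 63.0 for water and 84.1 and 87.4 for 2,4-D. Both treated arrays were above the water array, but the log2 change of 0.44 ± 0.27 did not pass (limma adjusted p = 0.238). Its interval of -0.08 to 0.96 does not reach that of HAT2.

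In the list on shade avoidance and the class II network, 1 of 5 tested genes rose and 0 fell by adjusted p in limma. At that threshold 10.8% of all tested probe sets were called higher and 10.5% lower. A count of 1 of 5 genes is too few to say anything about the list. With an unadjusted p under 0.05 in limma, 1 was higher and 1 lower, and the matching share of all tested probe sets is not given here. BIM1 (AT5G08130) encodes a basic helix-loop-helix protein that works with the brassinosteroid factor BES1. From 112 with water it reached 222 and 225 with treatment, 2.00-fold higher, a log2 change of 1.00 ± 0.21 (limma adjusted p = 2.66e-05). The 95% interval of 0.60 to 1.41 lay below that of HAT2.

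The other 4 genes of that list had lower values on both treated arrays than with water, and none of these 4 passed. ALC (AT5G67110), a basic helix-loop-helix gene of fruit opening, had 79.1 for water against 50.4 and 47.4 (log2 change -0.69 ± 0.30, limma adjusted p = 0.0865). SPT (AT4G36930), which is related to ALC and acts in carpel and leaf growth, had 39.4, 27.3 and 38.7 (-0.28 ± 0.39). YUC2 (AT4G13260), for an enzyme of auxin synthesis, had 42.2, 40.8 and 24.1 (-0.43 ± 0.39). The treated arrays disagreed for SPT and for YUC2, each with 1 of them close to water. IAA29 (AT4G32280), an Aux/IAA repressor gene, had 114, 81.4 and 102 (-0.33 ± 0.24).

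Of the leaf polarity list 1 of 2 tested genes fell, where 10.5% of all tested probe sets were called lower, and so few genes say nothing about the list. YAB3 (AT4G00180), a YABBY gene active on the lower side of leaves, had 201 for water against 121 and 130 after treatment, 1.60-fold lower. Its log2 change was -0.68 ± 0.21 (limma adjusted p = 0.0113), and the call was lost without the intensity trend (limma adjusted p = 0.097). YAB5 (AT2G26580), of the same family, had 77.0, 67.3 and 63.6 and did not pass (-0.23 ± 0.28). Both YABBY genes were lower on both treated arrays than with water, opposite in sign to HAT2.

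**Figure D3:**
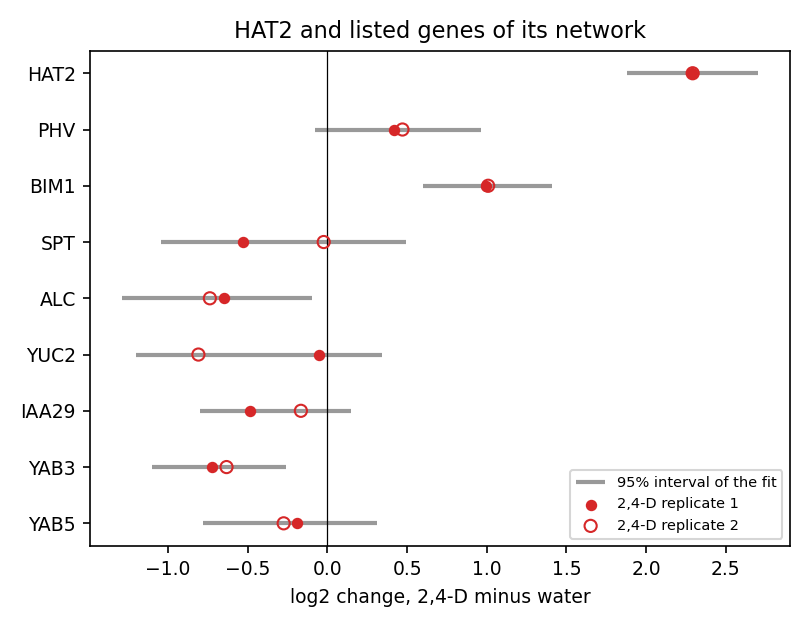
Log2 change from water on 2,4-D replicate 1 (filled) and replicate 2 (open) for HAT2 and the 8 other listed genes that could be named, with grey bars for the 95% interval of the limma fit. The bar of HAT2 runs from 1.88 to 2.70 and lies above all others, the nearest being BIM1 at 0.60 to 1.41.

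The genes next to HAT2 on the chromosome were looked at after their values had been seen. In the RefSeq gene order no annotated gene overlaps HAT2. Of the 10 protein-coding genes on each side, 15 could be named and 11 passed the filter on low signal. By adjusted p in limma 0 of the 11 were called higher and 1 was called lower. At that threshold 10.8% of all tested probe sets were called higher and 10.5% lower. With an unadjusted p under 0.05 in limma the counts among the 11 were 2 and 1. The share of all tested probe sets at an unadjusted p is not given here. The fitted changes of the tested neighbours ran from -0.73 to 1.11 with a median of 0.19. The adjoining gene on one side, AT5G47360, had 45.2 for water and 22.6 and 51.0 for 2,4-D, so its treated arrays fell on both sides of the water value. AT5G47380, the adjoining gene on the other side, had 54.2, 85.2 and 65.3 (log2 change 0.46 ± 0.28), which did not pass.

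The named neighbours too dim for the test were lower on both treated arrays than with water. Low treated signals help to place a gene in this group, so this direction says little. AT5G47350, one of them, lay below the brightest dim control on every array, so its direction is not resolved. Among the tested neighbours the highest change was that of AT5G47330, 4 genes away, with 17.0 for water against 40.9 and 32.9. Its water signal was below the filter value of 24.8, so it was tested only through its treated signals. Its log2 change of 1.11 ± 0.44 missed the threshold (limma adjusted p = 0.054), and it was called higher after scaling the arrays to one median, after quantile normalization and without the intensity trend (limma adjusted p = 0.0284, 0.0131 and 0.0235). AT5G47455 was called lower, with 102 for water against 75.7 and 49.6 (log2 change -0.73 ± 0.27, limma adjusted p = 0.0379), a call that ended under 5 alternatives. KUA1 (AT5G47390), a MYB-related gene that promotes cell expansion, lies 2 genes from HAT2 and had 419, 345 and 388 (-0.20 ± 0.19).

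**Figure D4:**
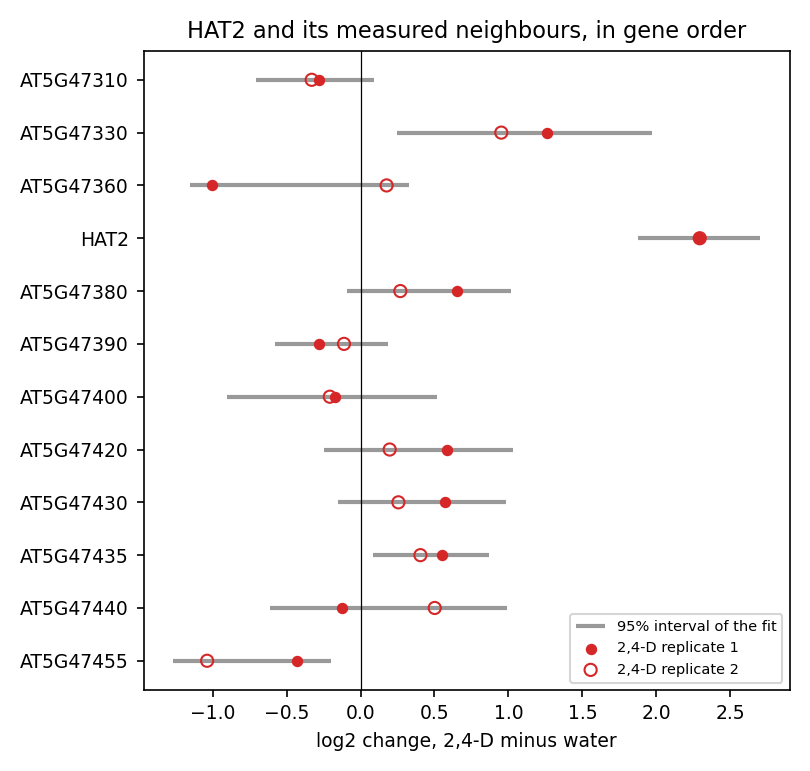
Log2 change from water on 2,4-D replicate 1 (filled) and replicate 2 (open) for HAT2 and the 11 tested genes within 10 protein-coding genes on either side, in gene order, with 95% intervals of the limma fit in grey. HAT2 stands at 2.29, while the single-array values of these tested neighbours lie between -1.04 and 1.26.

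The HAT2 change was little moved by scaling to one median, quantile normalization or an offset before log2. The filters, the trend and the raising of dim signals could not move it, because HAT2 kept the same log2 signals. Over the 7 alternatives with a test its log2 change ran from 2.23 with an offset to 2.41 after scaling to one median. HAT2 was called in each. Over all tested probe sets the change had a median of -0.04 as deposited and 0.07 after scaling to one median, which shifts every probe set alike and leaves HAT2 2.33 above that median by construction. That scaling moved the share of higher among all calls from 50.7% to 67.2%. Spiked bioB control signals went the other way from HAT2, with geometric means of 228 for water against 102 and 79.9. The brighter cre controls lay closer together, with 4396 for water against 3601 and 4122. The part of these differences in the result was not tested. The summed signal of the 3 named green tissue markers (RCA, LHCB4.1, LHCB4.2) of the 6 listed was 19971 for water and 13273 and 20422 for 2,4-D. For the 3 named root markers (PYK10, EXPA7, EXPA18) of the 6 listed it was 2321 for water and 3008 and 2458 for 2,4-D. PYK10 carried nearly all of the root sum. EXPA7 and EXPA18, genes of root hairs, were lower on both treated arrays, opposite to HAT2. Their water signals were above the filter value of 24.8, and they missed the test only through their low treated signals. EXPA7 had 37.0 for water against 15.1 and 15.3, 2.43-fold lower, and EXPA18 had 43.8 against 7.98 and 3.55, at least 4.62-fold lower. The part of tissue makeup in the result was not tested, and no marker of floral organs, pollen or seed was named.

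**Figure D5:**
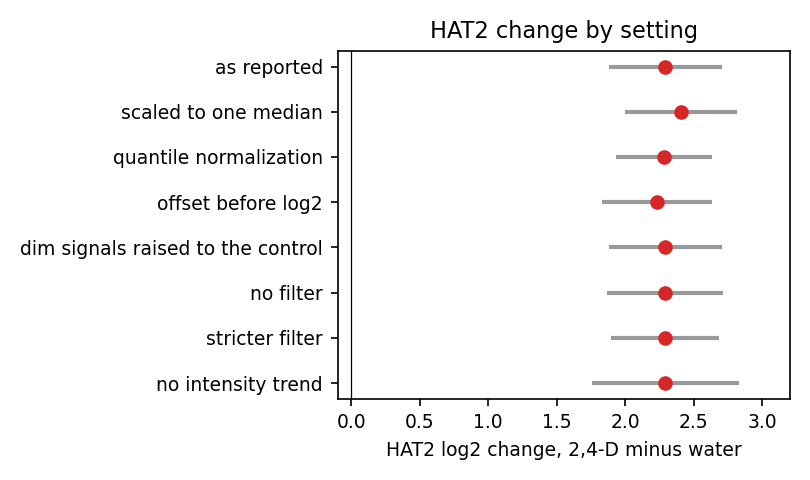
HAT2 log2 change of 2,4-D from water (points) with the 95% interval of the limma fit (bars) as reported and under each alternative. All points lie between 2.23 and 2.41, and the lowest limit of any bar is 1.75. The filters, the trend and the raised dim signals could not move the point.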

How the data were processed

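RNA from 3 samples (1 water, 2 2,4-D) was measured on Affymetrix ATH1 arrays. The authors deposited linear intensities from MAS5, as the submitters' processing notes name it. Its version and scaling target, like the genome build, were not given in the sources used here. The trimmed mean of the middle 96% of signals was 100.01 on each array, and the medians were 41.9, 38.7 and 38.5. The 64 control probe sets of the 22810 were left out. Names came from the platform's probe table and RefSeq (TAIR10.1, names and gene order only), with a locus for 13436 probe sets.

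Log2 signals without further normalization were tested in limma 3.58.1 (R 4.3.3) with lmFit and eBayes, with the variance following a trend over intensity, for probe sets with a mean signal at or above the 40th percentile (24.8). This mean holds 2 treated arrays, so dim genes that rose pass it more easily and genes that fell fail it more easily. Adjustment was by Benjamini-Hochberg, with a threshold of 0.05. There was 1 residual degree of freedom and an infinite prior, so each variance was read from the trend. The procedure was tested on simulated data. The number of arrays limits the precision.

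HAT2, the lists and the alternatives were chosen with earlier results of these data known. The text names HAT2, each list's tested members and the 5 genes nearest to HAT2. The neighbours were added later. Alternatives were scaling to one median, quantile normalization, an offset of 16 before log2, dim signals raised to the control, no filter, a filter at the 60th percentile, no trend, and each treated array left out. For a gene that was dim in 1 group, the fold is a lower bound computed from the brightest dim control.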

Additional observations from a re-analysis of the deposited data

How the results depend on the processing

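The call of HAT2 was kept under all 7 alternatives with a test, with log2 changes from 2.23 to 2.41 and limma adjusted p from 3.21e-28 to 0.000831. The filters, the trend and the raised dim signals could not change the log2 value of HAT2. With a treated array left out no test was possible, and its change was 2.288 or 2.293. Choosing members by the water signal could only give the same 1 gene, because no other gene met the symbol rule. No other member existed for the alternatives planned for other members. No paired analysis was possible because water has 1 array.

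Without a filter 1674 probe sets were called (964 higher, 710 lower), and without the trend 1673 (834 higher, 839 lower), against 2906 (1472 higher, 1434 lower). At least 2-fold higher on both treated arrays were 519 probe sets, 308 with an offset and 1339 without a filter, and 719 or 716 on 1 treated array alone. Probe sets at least as much higher as HAT2 numbered 57, and 24 with an offset, 36 with dim signals raised to the control, 274 without a filter and 35 with the stricter filter. Of the neighbours 2 were called after scaling to one median, 0 without a filter and 0 with the stricter filter, against 1. The 2 after scaling included AT5G47330 and not AT5G47455. After quantile normalization and without the trend the count stayed at 1, but the call was AT5G47330 higher in place of AT5G47455 lower. Of the listed genes other than HAT2, 1 was called without the trend, against 2. The filters changed which probe sets were tested. The other causes were not tested.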

Other observations

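The remaining gene with homeobox or homeodomain among its RefSeq synonyms and a named probe set was AT4G03090 (NDX), a nodulin homeobox gene, chosen after its values were seen. Its signal was 23.9 for water and 5.64 and 5.39 for 2,4-D. The treated signals lay below the brightest dim control, so it was at least 2.52-fold lower, opposite in direction to HAT2. HAT3.1 had 24.2 for water against 21.2 and 16.4, above the dim control on all 3 arrays. Neither gene passed the filter on low signal.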
